A study of Mus musculus with 20 samples.

Results

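The immediate early genes described here are 10 genes taken by name: Egr1, Egr2, Egr3, Fos, Fosb, Jun, Junb, Ier2, Nr4a1 and Myc. They are 10 of the 55367 genes listed in the count files, and all 10 passed the filter on low counts, which left 16598 genes for testing. C57BL/6J pups breathed 100% oxygen (hyperoxia) or room air with 21% oxygen from birth to postnatal day 4, and polyadenylated RNA of the left atrium and of the left ventricle was sequenced. There were 4 groups, the room air atrium, the hyperoxic atrium, the room air ventricle and the hyperoxic ventricle, with 5 libraries each, which per the series text stand for 5 individual mice. All pups were inbred C57BL/6J animals with no engineered allele named in the labels, and all were nursed by dams that moved daily between both atmospheres. The pups were killed with avertin and the chambers parted by hand. The sample labels name a Direct-zol kit for the RNA and the series text an RNeasy Plus kit. The labels do not say whether an atrium and a ventricle came from the same pup.

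Immediate early genes are transcribed within minutes of a stimulus without any need for new protein. Their promoters are bound in resting cells by factors such as SRF with its ternary complex partners and CREB, which MAP kinases and calcium signals switch on, and their short-lived mRNAs decay soon after. Most encode transcription factors: the EGR zinc-finger proteins, the FOS and JUN proteins that pair to form AP-1, the orphan nuclear receptor NR4A1, and MYC, which drives ribosome and nucleotide synthesis. In the heart they are known to respond to stretch, to growth-promoting hormones and to injury, and in many tissues also to handling and dissection. For that reason the library values of the 10 genes and their spread between libraries of 1 group are given below.

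Library totals ran from 26510081 to 38244117 counts. The chambers carried their markers. The summed level of 8 atrial cardiomyocyte genes ran from 18590 to 50410 CPM (counts scaled to the size of the library) in the atria. In the ventricles it ran from 1070 to 1994 CPM in room air and from 264 to 880 in hyperoxia, without overlap. A length slope was computed for each library over 11128 genes with a mean of at least 5 CPM. Each gene's log2 CPM, less its mean over both oxygen levels in that chamber, was regressed on log2 exon length. Slopes of -0.295 (hyperoxic atrium 2), -0.289 (hyperoxic atrium 4) and -0.225 (room air ventricle 4) set 3 libraries apart. Short transcripts took a larger share there than in their chamber on average. In the ventricles the slopes ran from 0.037 to 0.099 in hyperoxia and from -0.225 to 0.025 in room air, without overlap. Fits with the slope in the model therefore cannot fully part it from oxygen in that chamber. All 10 room air libraries held more reads of Y-linked genes than of Xist, against 1 of 5 hyperoxic atria and 2 of 5 hyperoxic ventricles. So the sex of the pups and the oxygen level cannot be told apart in most libraries. Some hyperoxic libraries held a little of both. Hyperoxic atrium 1 had 5.04 CPM of Y-linked genes beside 765 of Xist, and hyperoxic ventricle 6 had 21.7 CPM of Xist beside 206 of Y-linked genes. Xist reached at most 1.05 CPM in room air. The source of the minor signal was not tested. Numbers after a group name are the replicate numbers of the labels.

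RefSeq promoter entries in the table used here matched 6 of the 10 genes, Jun, Fosb, Junb, Egr2, Fos and Nr4a1. Entries for Egr1, Egr3, Ier2 and Myc are missing. The 250 bases before the RefSeq start of 5 of them are printed, read 5′ to 3′ on the gene's own strand (build GRCm38.p6). Fos and Nr4a1 are shown because their levels moved together between libraries, Jun and Junb because they went opposite ways in the hyperoxic atrium, and Egr2 because it had the largest atrial fold change of the 10. Capitals mark matches on either strand to 5 motifs searched: the CArG box bound by SRF, the CREB half-site TGACG (printed as its reverse complement where the match is on the other strand), the AP-1 site TGANTCA, the EGR site GCGNGGGCG and the TATA box TATAAA. No printed matches overlap each other.
Fos (chr12:85473640-85473889, plus strand): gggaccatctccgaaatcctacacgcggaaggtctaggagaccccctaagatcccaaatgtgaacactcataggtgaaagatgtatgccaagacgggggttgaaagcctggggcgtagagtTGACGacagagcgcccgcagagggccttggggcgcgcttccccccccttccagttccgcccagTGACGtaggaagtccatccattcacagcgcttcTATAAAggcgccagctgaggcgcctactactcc
Nr4a1 (chr15:101266596-101266845, plus strand): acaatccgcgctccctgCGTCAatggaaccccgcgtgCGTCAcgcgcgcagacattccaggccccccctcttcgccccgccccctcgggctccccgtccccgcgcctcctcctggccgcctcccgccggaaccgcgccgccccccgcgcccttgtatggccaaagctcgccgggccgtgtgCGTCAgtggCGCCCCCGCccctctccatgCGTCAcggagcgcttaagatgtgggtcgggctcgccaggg
Egr2 (chr10:67537619-67537868, plus strand): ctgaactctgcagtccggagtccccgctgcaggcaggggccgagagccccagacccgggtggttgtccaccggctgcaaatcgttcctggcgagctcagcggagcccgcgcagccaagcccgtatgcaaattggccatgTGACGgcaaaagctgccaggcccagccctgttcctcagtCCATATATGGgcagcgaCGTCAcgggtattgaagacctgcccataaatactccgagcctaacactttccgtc
Junb (chr8:84978749-84978998, minus strand): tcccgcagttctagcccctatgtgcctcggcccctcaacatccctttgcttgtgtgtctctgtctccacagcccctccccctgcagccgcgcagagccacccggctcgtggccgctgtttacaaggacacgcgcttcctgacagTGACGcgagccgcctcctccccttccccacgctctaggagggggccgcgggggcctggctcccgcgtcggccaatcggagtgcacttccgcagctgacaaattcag
Jun (chr4:95052223-95052472, minus strand): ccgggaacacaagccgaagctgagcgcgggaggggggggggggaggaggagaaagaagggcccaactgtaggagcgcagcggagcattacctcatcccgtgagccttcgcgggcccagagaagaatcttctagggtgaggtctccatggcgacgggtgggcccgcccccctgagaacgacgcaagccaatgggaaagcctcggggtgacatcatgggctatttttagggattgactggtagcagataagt

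None of the 5 windows overlaps a GENCODE exon. The Fos window holds TGACG at -129 and -66 and TATAAA at -33, counted to the first base of the match with -1 as the base before the start. The Nr4a1 window holds 4 TGACG matches, at -233, -213, -69 and -40, and 1 EGR site at -60. Egr2 has several RefSeq starts, and the window shown has a CArG box at -72 between TGACG matches at -111 and -55. Other Egr2 windows hold fewer: chr10:67535249-67535498 has no match to the 5 motifs, and chr10:67537316-67537565 has a CArG box at -72 and no TGACG. The remaining Egr2 windows overlap the one shown and hold the same matches. Junb has 1 TGACG match at -106, and the Jun window has no match to the 5 motifs. Of all 32851 RefSeq promoter windows of this length, 17.77% hold TGACG, 1.47% a CArG box, 4.7% GCGNGGGCG, 6.75% TGANTCA and 12.37% TATAAA. These matches describe the letters only. Near matches, such as tgacatca in the Jun window, were not counted, and bases further upstream were not searched.

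Levels of different genes are compared in TPM, counts scaled by exon length and library size (mean ± SD, n = 5 in every group). In the room air atrium Jun (81.5 ± 12.2 TPM) and Ier2 (80.2 ± 10.1) lay within 1 SD of each other at the top, followed by Nr4a1 (69 ± 11.2) and Egr1 (53.1 ± 11.01). Egr3 (4.42 ± 0.9 TPM), Egr2 (4.08 ± 0.6) and Fosb (2.04 ± 0.485) were the 3 lowest there, and in each of the other 3 groups too. In the hyperoxic atrium the order changed: Ier2 (87.99 ± 12.8 TPM) and Egr1 (78.8 ± 30.9) led, and Junb (37.8 ± 4.09), Jun (35.8 ± 6.01), Fos (33.6 ± 12.3), Myc (31.3 ± 6.57) and Nr4a1 (29.9 ± 5.34) followed, these 5 each within the larger SD of the next. In the room air ventricle Ier2 (70.5 ± 8.12 TPM) and Jun (54.5 ± 8.59) led, and Fos stood at 5.88 ± 1.71. In the hyperoxic ventricle Jun (74.5 ± 16.2) and Ier2 (62.98 ± 5.25) lay within 1 SD of each other, above Egr1 (43.1 ± 13.5). All values below are CPM, which compare the same gene between groups.

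**Figure D1:**
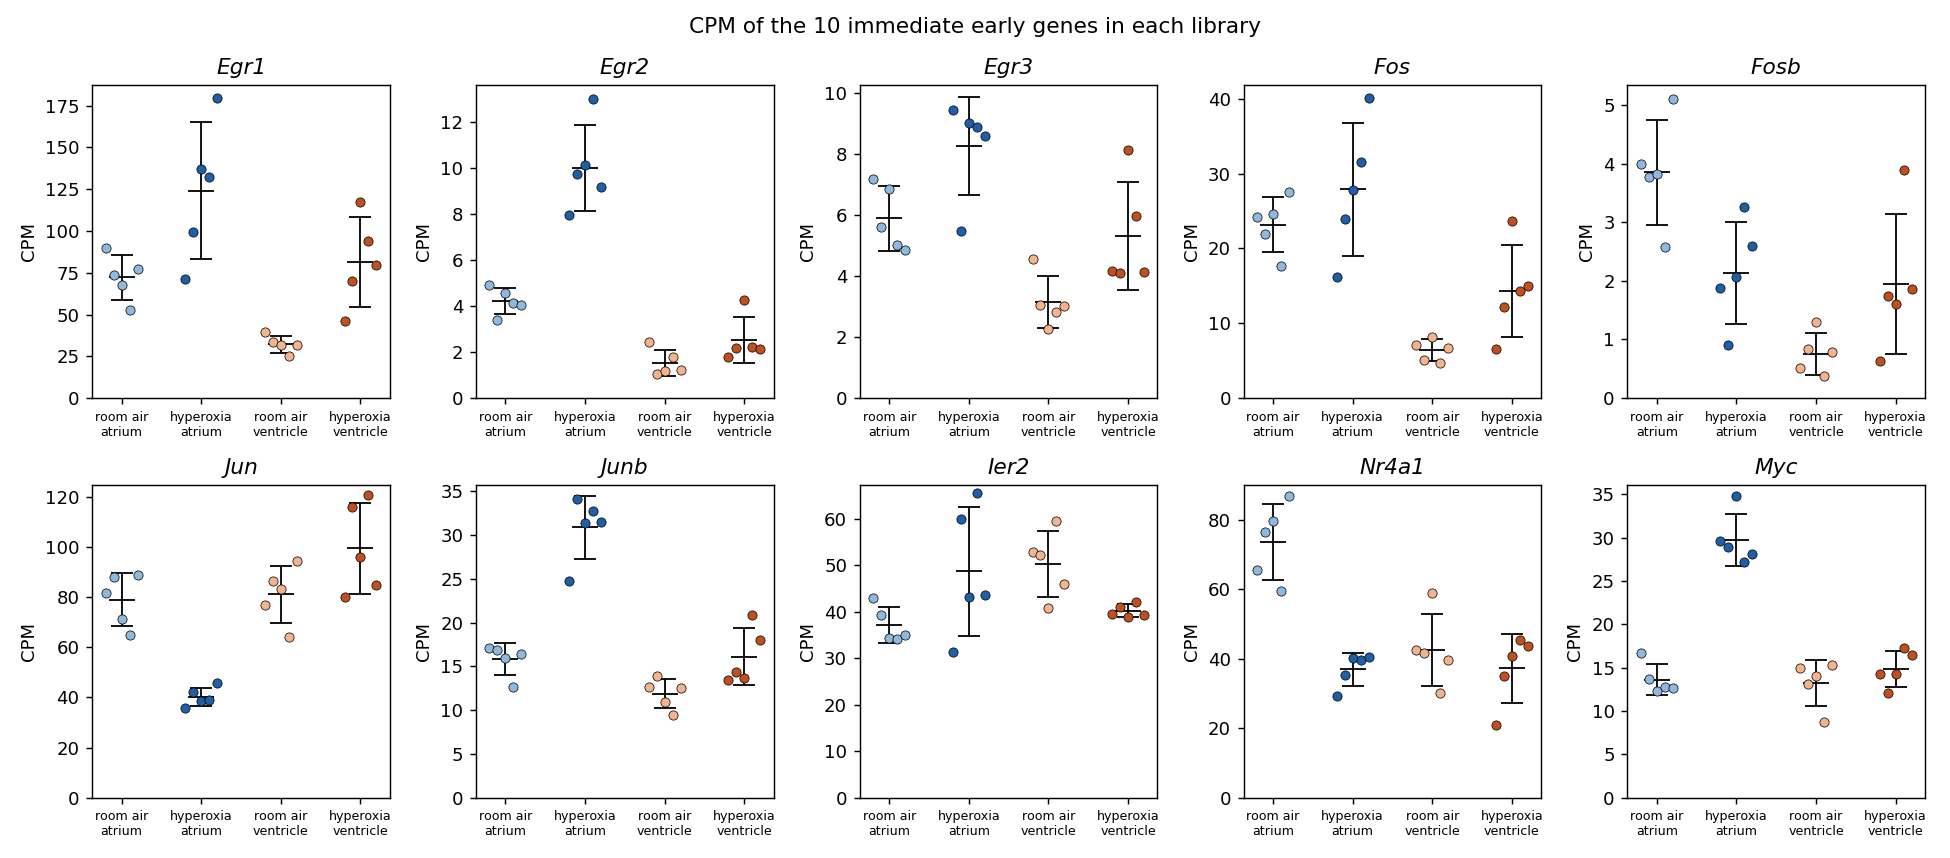
CPM of each of the 10 immediate early genes (vertical axes, starting at 0, each with its own range) in the 20 libraries, by group on the horizontal axes; points are libraries, the long bar is the group mean and the whiskers are ± 1 SD (n = 5). Myc and Junb in the hyperoxic atrium lie above, and Jun and Nr4a1 there lie below, every library of the room air atrium.

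Hyperoxia against room air in the left atrium asks how the chamber responded to oxygen, and the immediate early genes did not move one way. Of the 10, 5 were higher in the hyperoxic atrium (Egr1, Egr2, Junb, Ier2 and Myc), 2 were lower (Jun and Nr4a1) and 3 did not pass (Egr3, Fos and Fosb), at an adjusted p under 0.05. All adjusted p-values come from edgeR's quasi-likelihood test with Benjamini-Hochberg adjustment over all 16598 genes. By the same rule 43.9% of all genes tested passed in the atrium, 19.7% higher and 24.2% lower, so 7 of 10 stands against a broad background. The median log2 difference of the 10 was 0.44, against -0.06 over all genes tested. Libraries of the groups did not overlap for 5 of the 10 (3 higher, 2 lower), against 32.9% of all genes tested (13.6% higher, 19.3% lower). The comparison of the chambers in room air, given further below, shares the 5 room air atria with this one.

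The EGR proteins are zinc-finger factors that bind GC-rich sites. Egr1 (chr18:34859823-34864984 on GRCm38, 2 exons) stood at 90.01, 73.6, 67.4, 52.7 and 77.2 CPM in room air atria 1 to 5 and at 71.2, 99.6, 137, 132 and 179.7 in hyperoxic atria 1 to 5. Hyperoxic atrium 1 lay below room air atria 1, 2 and 5, and the other 4 hyperoxic libraries lay above all room air libraries. Egr1 was 1.72-fold higher (log2 difference 0.78, SE 0.22, adjusted p = 0.00652). Egr2 (chr10:67535475-67542188) stood at 4.93, 3.39, 4.58, 4.14 and 4.04 CPM in room air and at 7.95, 9.74, 10.1, 13 and 9.18 in hyperoxia, with no overlap and the lowest hyperoxic value in library 1 again. It was 2.37-fold higher (log2 difference 1.25, SE 0.22, adjusted p = 0.000104). Egr3 (chr14:70077203-70082614) stood at 7.198, 5.604, 6.85, 5.02 and 4.85 CPM in room air and at 9.46, 5.47, 9.04, 8.88 and 8.58 in hyperoxia. Here library 2, not library 1, was the low hyperoxic one, and the groups overlapped through it. The Egr3 difference missed the threshold (log2 difference 0.49, SE 0.21, adjusted p = 0.0587, 95% interval 0.05 to 0.93), and passed in 13 of 33 alternative fits, among them RLE scaling (adjusted p = 0.0464) and the fit without hyperoxic atrium 2 (log2 difference 0.61, adjusted p = 0.0204). Egr2 lost its call in 1 of 33, with the length slope and Y-linked reads both in the model (log2 difference 0.76, adjusted p = 0.0516). The Egr1 call was lost in 4 of 33 edgeR and other fits. It was lost with the level of Y-linked reads in the model (log2 difference 0.41, SE 0.26, adjusted p = 0.233) and with that level and the length slope (0.56, adjusted p = 0.277). It was lost too with the replicate block, which kept only libraries 1, 2, 4 and 5 of each group (0.66, adjusted p = 0.0835). It was also lost among the libraries where Y-linked reads outnumbered those of Xist (0.46, adjusted p = 0.0967), where 1 hyperoxic atrium was left and was assumed to vary like the other groups.

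The JUN proteins went opposite ways. Jun (chr4:95049034-95052222), which pairs with FOS proteins and can also pair with itself, stood at 81.5, 88.04, 71.3, 64.98 and 88.9 CPM in room air atria and at 35.96, 41.98, 38.4, 39 and 45.6 in hyperoxic atria. Every hyperoxic library lay below every room air library. Jun was 1.97-fold lower (log2 difference -0.97, SE 0.12, adjusted p = 1.89e-06). Junb (chr8:84974484-84978718), a JUN protein that can restrain JUN in AP-1, stood at 17.1, 16.9, 15.9, 12.7 and 16.4 CPM in room air and at 24.7, 34.1, 31.4, 32.8 and 31.4 in hyperoxia. The groups did not overlap, and library 1 was the lowest of the hyperoxic atria for both genes. Junb was 1.95-fold higher (log2 difference 0.96, SE 0.13, adjusted p = 4.33e-06). Both calls held in all 33 alternative fits, with log2 differences from -1.04 to -0.87 for Jun and from 0.88 to 1.11 for Junb. Whether the counting used strand is not given in the sources used here. Junb shares 173 exonic bases with Prdx2 on the opposite strand, whose mean level in the atria was 364.8 CPM in room air and 413.6 CPM in hyperoxia, and Jun shares 232 with its antisense RNA Junos, which had 393 counts over all 20 libraries.

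The FOS genes did not pass in the atrium. Fos (chr12:85473890-85477273) stood at 24.2, 21.99, 24.6, 17.6 and 27.5 CPM in room air and at 16.1, 23.9, 27.9, 31.6 and 40.1 in hyperoxia. Hyperoxic atrium 1 was lower than every room air library and hyperoxic atria 3, 4 and 5 were higher than all of them. The log2 difference was 0.27 (SE 0.24, adjusted p = 0.396, 95% interval -0.25 to 0.79). Fosb (chr7:19302696-19310051), the least abundant of the 10, stood at 3.996, 3.77, 3.83, 2.59 and 5.11 CPM in room air and at 1.89, 0.906, 2.06, 3.26 and 2.595 in hyperoxia. Of the hyperoxic libraries 2 lay above the lowest room air library, atrium 4, and 3 lay below it. Its difference missed the threshold (log2 difference -0.85, SE 0.37, adjusted p = 0.064) and passed in 8 of 33 alternative fits.

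Nr4a1 (chr15:101254269-101274795), which encodes an orphan nuclear receptor, stood at 65.7, 76.5, 79.5, 59.4 and 86.8 CPM in room air atria and at 29.4, 35.2, 40.1, 39.6 and 40.6 in hyperoxic atria. The hyperoxic libraries lay close together and all below the room air ones. Nr4a1 was 1.99-fold lower (log2 difference -0.99, SE 0.18, adjusted p = 0.000112). Myc (chr15:61985391-61990374) stood at 16.7, 13.7, 12.3, 12.8 and 12.7 CPM in room air and at 29.6, 28.9, 34.8, 27.2 and 28.1 in hyperoxia. All 5 hyperoxic libraries lay far above the highest room air library. Myc was 2.18-fold higher (log2 difference 1.12, SE 0.13, adjusted p = 6.8e-07). The Nr4a1 and Myc calls held in all 33 alternative fits, with log2 differences from -1.07 to -0.83 and from 1.03 to 1.24.

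Ier2 (chr8:84661331-84662852), a gene of 1 exon whose product is a nuclear regulator, stood at 42.9, 39.2, 34.2, 34.1 and 34.98 CPM in room air and at 31.4, 59.9, 43.1, 65.6 and 43.6 in hyperoxia. Library 1 was the lowest of all 10 atria, and hyperoxic atria 2 and 4 were far above the others. Ier2 passed with a 1.31-fold difference (log2 difference 0.39, SE 0.14, adjusted p = 0.0314). At 1522 exonic bases it is the shortest of the 10 genes, and its highest values were in hyperoxic atria 4 and 2, which had the length slopes of -0.289 and -0.295. Without the 3 libraries with such slopes the log2 difference was 0.09 (adjusted p = 0.554, edgeR), and with that slope in the model 0.03 (adjusted p = 0.824). The edgeR call was also lost without hyperoxic atrium 2 or 4 or without room air atrium 3, 4 or 5, each left out alone (adjusted p from 0.0675 to 0.13), and with voom quality weights the log2 difference was 0.12 (adjusted p = 0.296). Ier2 passed in 21 of all 33 alternative fits.

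**Figure D2:**
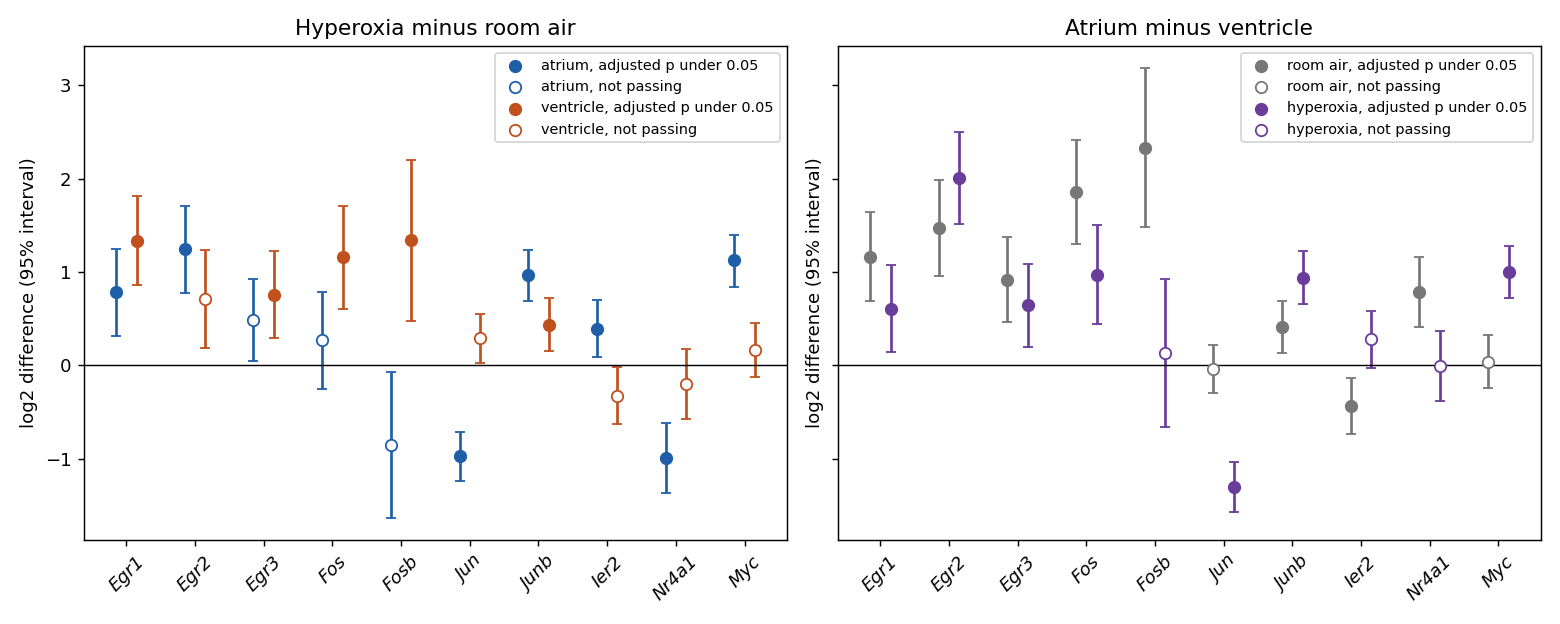
Log2 difference (vertical axes) of each immediate early gene (horizontal axes) between hyperoxia and room air in each chamber (left panel) and between atrium and ventricle at each oxygen level (right panel); points are edgeR estimates from 5 against 5 libraries, bars their 95% intervals, filled points an adjusted p under 0.05. Jun lies at -0.97 in the atrium and 0.29 in the ventricle, and Myc at 1.12 and 0.17.

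In the left ventricle the same comparison gave a different set. Of the 10 genes, 5 were higher in hyperoxia (Egr1, Egr3, Fos, Fosb and Junb), none was lower and 5 did not pass in edgeR's test. At an unadjusted p under 0.05 there were 7 higher and 1 lower (Ier2), and DESeq2 and voom also called none lower. In a fit of the compared libraries alone Ier2 was lower (log2 difference -0.32, SE 0.10, adjusted p = 0.0357) and 3 genes were higher. Over all genes tested 10.9% passed in the ventricle, 5.64% higher and 5.28% lower. The median log2 difference of the 10 was 0.57, against -0.01 over all genes tested. Libraries did not overlap for 1 of the 10, Egr1, against 12.4% of all genes tested (6.51% higher, 5.93% lower). The count of 5 depended on the fit: it was 1 once the Y-linked level entered the model, 2 where Y-linked reads outnumbered Xist, and 0 in a fit of the ventricles with the level of Myl7, an atrial light chain, as a covariate (the smallest adjusted p was 0.0819, for Egr1, and 88 of all genes passed). Of the fits that left out 1 library, it was 2 without hyperoxic ventricle 5, room air ventricle 4 or room air ventricle 5, and 3 without hyperoxic ventricle 4 or 6 or room air ventricle 2 or 3.

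Egr1 stood at 39.4, 33.5, 31.7, 25.1 and 31.5 CPM in room air ventricles 1 to 5 and at 46, 70.1, 118, 94.2 and 79.6 in hyperoxic ventricles 1, 2, 4, 5 and 6. Every hyperoxic library lay above every room air library, with ventricle 1 the lowest of the hyperoxic ones. Egr1 was 2.53-fold higher (log2 difference 1.34, SE 0.23, adjusted p = 0.00144), and passed in 33 of 34 alternative fits, the exception being the Myl7 covariate (log2 difference 1.01, SE 0.25, adjusted p = 0.0819). Egr3 stood at 4.57, 3.04, 2.26, 2.83 and 3.005 CPM in room air and at 4.18, 4.102, 8.14, 5.97 and 4.13 in hyperoxia. The groups overlapped through room air ventricle 1, and hyperoxic ventricle 4 was the highest. Egr3 was 1.69-fold higher (log2 difference 0.76, SE 0.22, adjusted p = 0.0314), a call lost without any 1 of hyperoxic ventricles 4 and 5 and room air ventricles 2, 3, 4 and 5 (adjusted p from 0.0524 to 0.097), and it passed in 22 of all 34 alternative fits. Egr2 stood at 2.42, 1.02, 1.196, 1.77 and 1.22 CPM in room air and at 1.76, 2.17, 4.27, 2.21 and 2.12 in hyperoxia, with hyperoxic ventricle 4 far above the rest and room air ventricle 1 above 4 of the hyperoxic libraries. It missed the threshold (log2 difference 0.71, SE 0.25, adjusted p = 0.0633), and passed without hyperoxic ventricle 1 or room air ventricle 1 (adjusted p = 0.0459 and 0.0267), while without hyperoxic ventricle 4 its log2 difference was 0.44 (adjusted p = 0.198). It passed in 5 of 34 alternative fits.

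Fos stood at 7.104, 5.12, 8.21, 4.72 and 6.75 CPM in room air ventricles and at 6.57, 12.1, 23.6, 14.3 and 14.9 in hyperoxic ones. Hyperoxic ventricle 1 lay within the room air range and the other 4 lay above it, ventricle 4 the most. Fos was 2.23-fold higher (log2 difference 1.16, SE 0.26, adjusted p = 0.00972). Fosb stood at 0.507, 0.835, 1.296, 0.37 and 0.779 CPM in room air and at 0.627, 1.74, 1.603, 3.89 and 1.86 in hyperoxia. Hyperoxic ventricle 1 was again within the room air range, and ventricle 5 was the highest. Fosb was 2.54-fold higher (log2 difference 1.34, SE 0.41, adjusted p = 0.0382). Its counts were low, down to 9 in 1 room air ventricle. The call was lost in 7 of the 20 fits that left out 1 library, and all 7 left out a ventricle. These were hyperoxic ventricles 4, 5 and 6 and room air ventricles 1, 2, 4 and 5 (adjusted p from 0.0546 to 0.148). The fits without an atrium keep every library compared here, so they test the call little. Without hyperoxic ventricle 5 the Fosb log2 difference was 0.91. Over all 34 alternative fits Fosb passed in 18, and its log2 difference was 0.82 with voom quality weights (adjusted p = 0.229) and 0.54 with the Myl7 covariate (adjusted p = 0.649). Fos kept its call in all 20 fits that left out 1 library and lost it in 5 others. These were voom quality weights (log2 difference 0.73, adjusted p = 0.155), the length slope (1.03, adjusted p = 0.0506), the Y-linked level (0.92, adjusted p = 0.101), both of these covariates (0.85, adjusted p = 0.161) and the Myl7 covariate (0.87, adjusted p = 0.223).

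Junb stood at 12.7, 13.9, 10.97, 9.49 and 12.5 CPM in room air ventricles and at 13.5, 14.3, 13.7, 20.9 and 18.1 in hyperoxic ones. Hyperoxic ventricles 5 and 6 were the highest, and room air ventricle 2 reached the lower hyperoxic values. Junb was 1.35-fold higher (log2 difference 0.44, SE 0.13, adjusted p = 0.0402), a call lost without any 1 of hyperoxic ventricles 5 and 6 and room air ventricles 1, 3, 4 and 5 (adjusted p from 0.052 to 0.137), and it passed in 21 of all 34 alternative fits. Jun stood at 76.98, 86.4, 83.2, 63.99 and 94.5 CPM in room air and at 79.99, 116, 95.9, 120.5 and 84.7 in hyperoxia, with much overlap (log2 difference 0.29, SE 0.12, adjusted p = 0.114). Nr4a1 stood at 42.6, 41.6, 58.99, 30.2 and 39.6 CPM in room air and at 20.97, 35.1, 40.8, 45.5 and 43.6 in hyperoxia. The groups overlapped, with hyperoxic ventricle 1 below all others (log2 difference -0.20, SE 0.18, adjusted p = 0.474, 95% interval -0.57 to 0.18). Myc stood at 14.9, 13.1, 14.1, 8.79 and 15.4 CPM in room air and at 14.3, 12.1, 14.3, 17.3 and 16.4 in hyperoxia. Room air ventricle 4 was low and the other 9 ventricles lay together (log2 difference 0.17, SE 0.13, adjusted p = 0.419, 95% interval -0.12 to 0.45). Ier2 stood at 52.8, 52.2, 40.9, 59.6 and 46.04 CPM in room air and at 39.5, 41.1, 38.96, 42.2 and 39.2 in hyperoxia, where its 5 libraries hardly differed (log2 difference -0.32, SE 0.14, adjusted p = 0.137).

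The difference between the atrial and the ventricular response was tested directly, as the atrial log2 difference minus the ventricular one. It passed for 6 of the 10 genes, 3 with a more positive response in the atrium and 3 with a more negative one, and 36.5% of all genes tested passed, 17% more positive and 19.5% more negative. Jun showed an atrial response 2.41-fold lower than the ventricular one (log2 difference -1.27, SE 0.17, adjusted p = 1.92e-05), Fosb 4.57-fold lower (log2 difference -2.19, SE 0.55, adjusted p = 0.00405) and Nr4a1 1.74-fold lower (log2 difference -0.80, SE 0.25, adjusted p = 0.0173). Myc showed an atrial response 1.94-fold higher (log2 difference 0.96, SE 0.19, adjusted p = 0.000635), Ier2 1.64-fold higher (log2 difference 0.72, SE 0.20, adjusted p = 0.0097) and Junb 1.44-fold higher (log2 difference 0.53, SE 0.19, adjusted p = 0.0308). Jun and Myc passed in all 32 alternative fits. The other 4 genes did not pass: the difference was -0.56 for Egr1 (95% interval -1.22 to 0.11), 0.54 for Egr2 (-0.17 to 1.24), -0.27 for Egr3 (-0.90 to 0.37) and -0.89 for Fos (-1.65 to -0.13; adjusted p = 0.0552). Once the length slope entered the model only Jun and Myc passed, and the log2 difference of responses of Ier2 was 0.09 (adjusted p = 0.767). The slope separated the oxygen groups in the ventricles, so that fit cannot fully part slope from oxygen. The Junb call was lost in 8 of the 20 fits without 1 library (hyperoxic atria 2 and 4, hyperoxic ventricles 1, 2 and 4, room air atrium 4 and room air ventricles 1 and 2; adjusted p from 0.051 to 0.0651), and that of Nr4a1 without hyperoxic ventricle 5 (adjusted p = 0.0678). Over all 32 alternative fits Junb passed in 22, Nr4a1 in 27, Ier2 in 28 and Fosb in 31.

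In room air the left atrium held more mRNA of most of the 10 genes than the left ventricle. The atrium was higher for 7 (Egr1, Egr2, Egr3, Fos, Fosb, Junb and Nr4a1) and lower for 1 (Ier2), and Jun and Myc did not pass. Over all genes tested 55% passed in this comparison, 28.7% higher in the atrium and 26.3% lower. Libraries of the chambers did not overlap for 6 of the 10, all higher in the atrium, against 46.5% of all genes tested (25.1% higher, 21.4% lower). The room air values already given show Fos between 17.6 and 27.5 CPM in the atria and between 4.72 and 8.21 CPM in the ventricles, a 3.62-fold difference (log2 difference 1.86, SE 0.26, adjusted p = 3.47e-06). Fosb differed 5.02-fold (log2 difference 2.33, SE 0.40, adjusted p = 4.49e-05), Egr2 2.77-fold (log2 difference 1.47, SE 0.24, adjusted p = 2.42e-05), Egr1 2.24-fold (log2 difference 1.16, SE 0.22, adjusted p = 0.000157), Egr3 1.88-fold (log2 difference 0.91, SE 0.22, adjusted p = 0.00117) and Nr4a1 1.73-fold (log2 difference 0.79, SE 0.18, adjusted p = 0.000758). These 6 passed in all 34 alternative fits. Junb was 1.33-fold higher (log2 difference 0.41, SE 0.13, adjusted p = 0.0127). Jun was nearly level, at 78.95 ± 10.5 CPM in the atria and 81.02 ± 11.4 in the ventricles (log2 difference -0.04, 95% interval -0.30 to 0.22), and so was Myc, at 13.6 ± 1.79 and 13.2 ± 2.64 CPM (log2 difference 0.04, 95% interval -0.24 to 0.32). Ier2 was lower in the atrium (log2 difference -0.44, SE 0.14, adjusted p = 0.0136), a call lost once the length slope entered the model (adjusted p = 0.25).

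In hyperoxia 6 of the 10 genes were higher in the atrium (Egr1, Egr2, Egr3, Fos, Junb and Myc), 1 was lower (Jun) and 3 did not pass (Fosb, Ier2 and Nr4a1), where 48.8% of all genes tested passed (25.2% higher, 23.6% lower). Libraries did not overlap for 4 of the 10, 3 higher and 1 lower, against 32.9% of all genes tested (16.6% higher, 16.3% lower). Egr2 stood 4.01-fold higher in the hyperoxic atrium (log2 difference 2.004, SE 0.23, adjusted p = 2.16e-07), with no overlap. Myc was 2-fold higher (log2 difference 0.998, SE 0.13, adjusted p = 1.58e-06) and Junb 1.92-fold higher (log2 difference 0.94, SE 0.13, adjusted p = 3.41e-06). Jun, at 40.2 ± 3.697 CPM in the hyperoxic atria and 99.4 ± 18.1 in the hyperoxic ventricles, was 2.47-fold lower in the atrium (log2 difference -1.31, SE 0.12, adjusted p = 1.17e-08). Fos was 1.95-fold higher (log2 difference 0.97, SE 0.25, adjusted p = 0.0028), Egr3 1.57-fold (log2 difference 0.65, SE 0.21, adjusted p = 0.0135) and Egr1 1.52-fold (log2 difference 0.61, SE 0.22, adjusted p = 0.0264). The Egr1 call was lost in 11 of 34 alternative fits, among them those without hyperoxic atrium 3 or 5 or hyperoxic ventricle 1 or 2 (adjusted p from 0.0534 to 0.102). Nr4a1 stood at 36.98 ± 4.75 CPM in the atria and 37.2 ± 9.89 in the ventricles (log2 difference -0.01, 95% interval -0.38 to 0.37), and Fosb at 2.14 ± 0.873 and 1.95 ± 1.19 CPM (log2 difference 0.13, 95% interval -0.66 to 0.93).

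The spread between libraries of 1 group was large for some of these genes. Within groups the SD of log2 CPM was 0.40 for Egr1 and 0.46 for Fos, higher than in 98.4% and 98.2% of the 500 genes nearest in level, and 0.32 for Nr4a1 (93.8%) and 0.67 for Fosb (87.4%). Ier2 had 0.25 (78%), Egr3 0.35 (72.6%), Jun 0.21 (68.4%), Egr2 0.38 (66%), Junb 0.22 (60.6%) and Myc 0.22 (58.6%). The median over all genes tested was 0.25. The ratio of the highest to the lowest library of a group reached 3.6 for Fos in the hyperoxic ventricle and 2.53 for Egr1 in the hyperoxic atrium, against 1.28 for Myc there. Fosb reached 6.21 in the hyperoxic ventricle, at low counts.

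**Figure D3:**
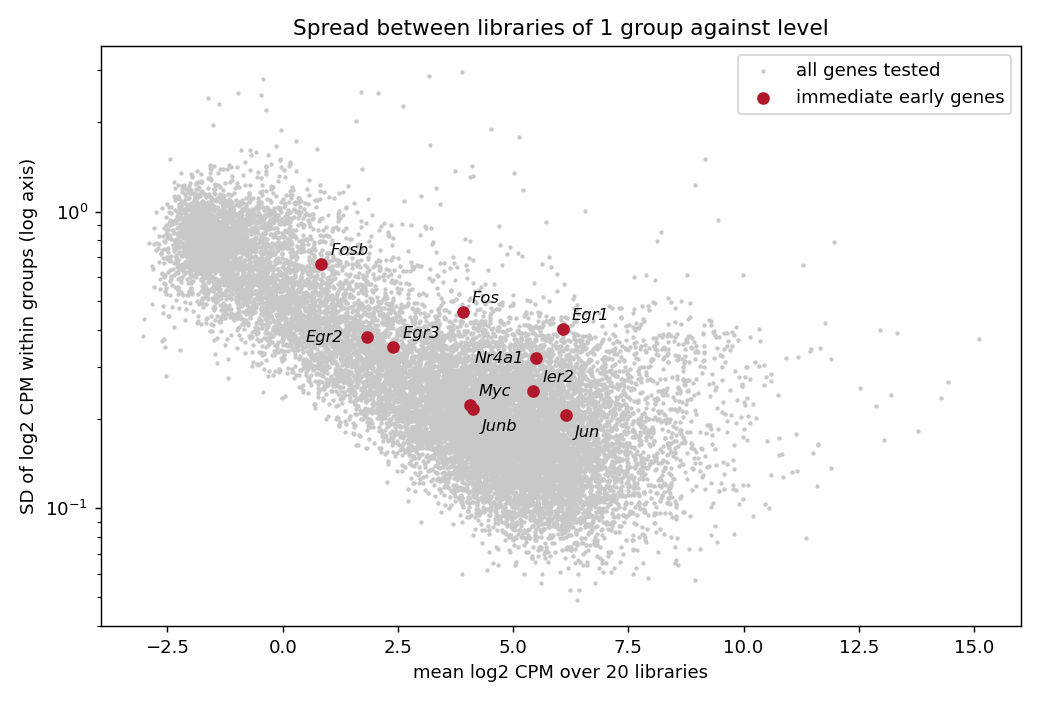
SD of log2 CPM within groups (vertical axis, log scale, 16 degrees of freedom) against the mean log2 CPM over 20 libraries (horizontal axis) for all 16598 genes tested (grey) and the 10 immediate early genes (red, named). Egr1 and Fos lie near the upper edge of the grey cloud at their level, at 0.40 and 0.46, and Jun, Junb and Myc lie inside it, at 0.21 to 0.22.

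In every group 1 library was the lowest for 7 of the 10 genes: room air atrium 4, hyperoxic atrium 1, room air ventricle 4 and hyperoxic ventricle 1, with the same replicate number in both chambers at each oxygen level. Egr1, Fos, Jun, Junb and Nr4a1 were lowest in all 4 of these libraries, 5 of 10 genes, against 13 of all 16598 genes tested (0.0783%). These libraries were singled out after their values were seen, and the share is a description. Their mean deviation over the 10 genes was -0.27, -0.30, -0.28 and -0.52 on the log2 scale, in the order just given. The highest library was room air atrium 1 for 6 genes and hyperoxic ventricle 5 for 6. The mean deviation of 12 heat shock genes in the same 4 libraries was 0.09, -0.33, 0.39 and -0.05, and their length slopes were 0.006, 0.056, -0.225 and 0.043, so neither measure was at one end in all 4. Time from death to lysis is not given in the sources used here, and its part in the spread was not tested.

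**Figure D4:**
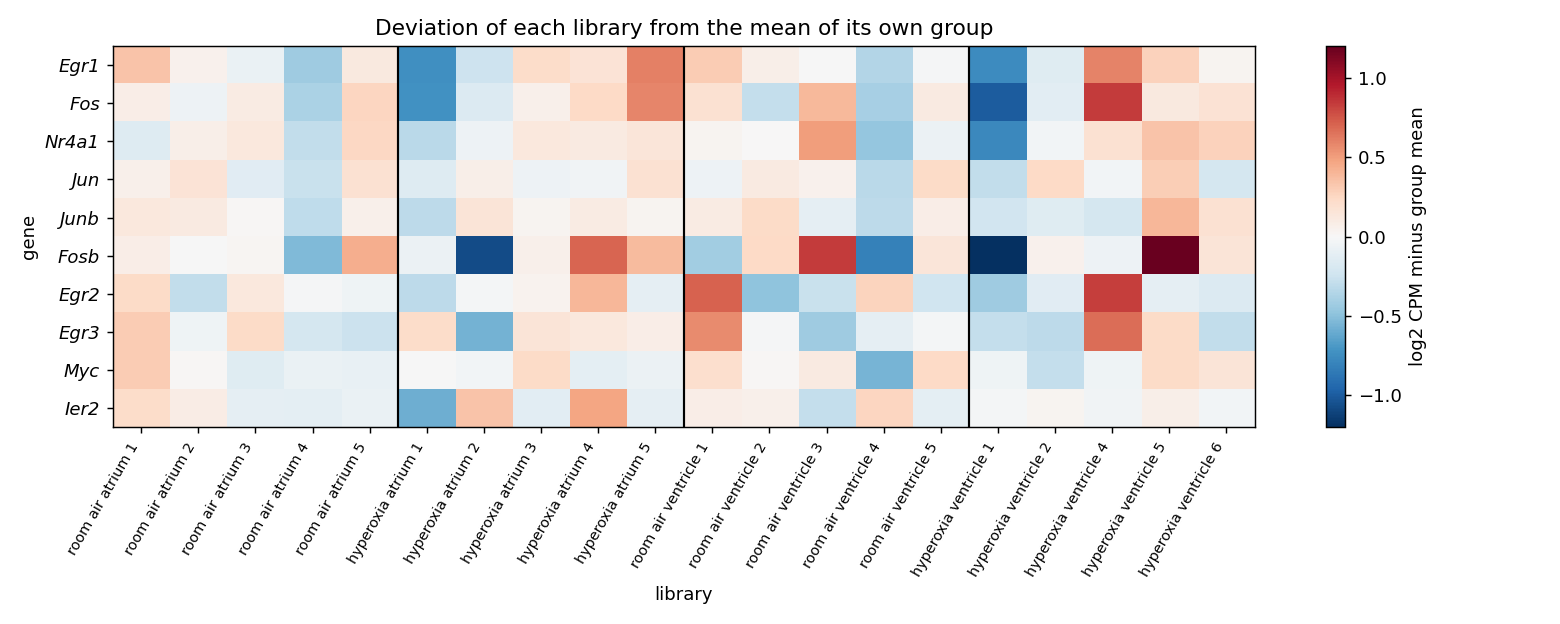
Deviation of log2 CPM from the mean of the library's own group (colour, blue below and red above) for the 10 immediate early genes (rows) in the 20 libraries (columns, groups parted by black lines). Hyperoxic ventricle 1, with a mean deviation of -0.52, lies below its group mean for all 10 genes, and Egr1, Fos and Nr4a1 share their pattern over most libraries.

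Some of the 10 genes followed each other within groups and others did not. Over the 20 libraries the deviations of Egr1 and Fos had a Pearson r of 0.9, those of Fos and Nr4a1 0.82, of Fosb and Nr4a1 0.79 and of Egr1 and Nr4a1 0.7. Over all 45 pairs r ran from -0.2 (Ier2 and Myc) to 0.9, with a median of 0.36, and it was over 0.5 for 16 pairs and under 0 for 8. Libraries share their depth scaling and tissue makeup in such a measure, so these are descriptions. Egr2 and Egr3 had 0.64, and Jun and Junb 0.6. So Jun and Junb moved together between libraries of 1 group and went opposite ways with hyperoxia in the atrium.

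Among 11248 other genes with a mean of at least 5 CPM, the 6 whose within-group deviations were most like the mean scaled deviation of the 10 were Rnf146 (r = 0.797), Nck1 (0.796), Apold1 (0.719), Pafah1b1 (0.715), Dusp1 (0.705) and Zwint (0.704), over 20 libraries. Rnf146 encodes a ubiquitin ligase, Nck1 an adaptor of receptor tyrosine kinases, Apold1 an early response protein of endothelium, Pafah1b1 a dynein regulator, Dusp1 a phosphatase of MAP kinases and Zwint a kinetochore protein.

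**Figure D5:**
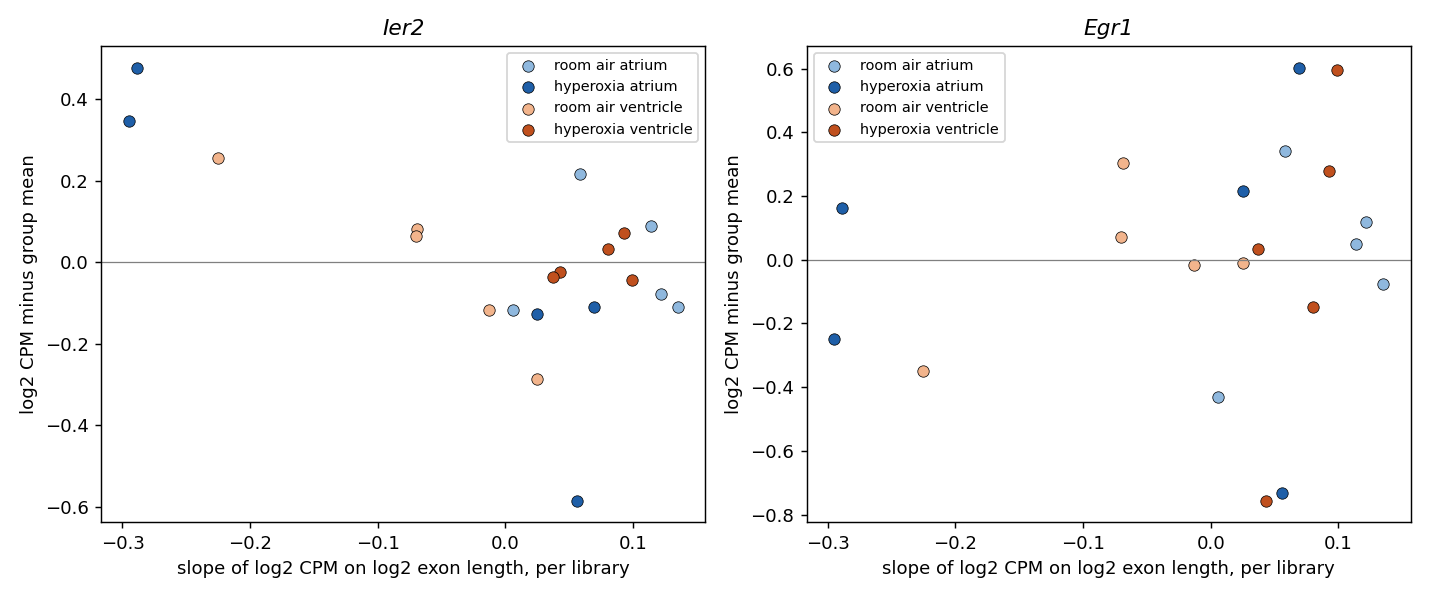
Deviation of log2 CPM from the group mean (vertical axes) of Ier2 (left) and Egr1 (right) against the length slope of the library (horizontal axes), 1 point per library, coloured by group. The slope is the change in log2 CPM, less the chamber mean, per doubling of exon length. For Ier2 the 3 libraries with slopes of -0.225 or lower lie above 0, and for Egr1 they lie on both sides of it.

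Other genes of the pathway were taken from lists chosen by function, and each count is to be read against the share of all genes tested, 19.7% higher and 24.2% lower in the hyperoxic atrium and 5.64% higher and 5.28% lower in the hyperoxic ventricle. The lists overlap, so their counts are not independent. Hspd1 and Hspe1 count among both MYC targets and heat shock genes. Srf and Maff count among the other early factors and also in the SRF and AP-1 lists. Nab2 and Ier3 are EGR1 targets that also count among feedback genes and other early factors. Of 15 MAP kinase genes, which carry the signal to these promoters, none was higher and 6 were lower in the hyperoxic atrium in edgeR's test, with none higher and 7 lower at an unadjusted p under 0.05. Rps6ka5, which encodes the kinase MSK1 that phosphorylates CREB, fell from 21.03 ± 1.53 to 10.6 ± 1.47 CPM (log2 difference -0.99, SE 0.10, adjusted p = 9.98e-08), and Map3k1 was lower too (log2 difference -0.58, SE 0.12, adjusted p = 0.000607). Of 13 genes for SRF, its partners and CREB family factors, 1 was higher and 8 were lower. Myocd, the SRF coactivator of muscle, stood at 37.5 ± 5.53 CPM in room air and 18.9 ± 6.18 in hyperoxia (log2 difference -0.99, SE 0.17, adjusted p = 8.45e-05), and Elk3, a ternary complex factor, at 116 ± 14.2 and 70.5 ± 6.03 CPM (log2 difference -0.72, SE 0.09, adjusted p = 1.4e-06). In the ventricle 2 MAP kinase genes were higher and 1 lower, and 3 genes of the SRF list were higher and 2 lower. There Elk3 (log2 difference -0.38, SE 0.09, adjusted p = 0.0125) and the related Elk4 (log2 difference -0.57, SE 0.14, adjusted p = 0.0131) were lower, and Creb1, which encodes CREB (log2 difference 0.31, SE 0.09, adjusted p = 0.0287), and Myocd (log2 difference 0.57, SE 0.17, adjusted p = 0.0385) were higher.

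Of 12 AP-1 partner genes, 7 were higher in the hyperoxic atrium, 3 lower and 2 did not pass, against 43.9% of all genes passing. Mafg, a small MAF protein gene, stood at 43.8 ± 3.51 CPM in room air and 73.2 ± 14.2 in hyperoxia (log2 difference 0.74, SE 0.11, adjusted p = 1.99e-05). Fosl1, which encodes the FOS-like protein FRA1, stood at 0.161 ± 0.0881 CPM in room air and 1.21 ± 0.595 in hyperoxia (log2 difference 2.895, SE 0.63, adjusted p = 0.000793), and Atf3, a stress-induced partner, at 15.6 ± 1.55 and 26.8 ± 5.603 CPM (log2 difference 0.78, SE 0.16, adjusted p = 0.000522). Of 20 other early response factors tested, 4 were higher, 7 lower and 9 did not pass, the lower ones led by Klf9 (log2 difference -1.05, SE 0.13, adjusted p = 2.08e-06), Klf4 (log2 difference -0.94, SE 0.15, adjusted p = 2.37e-05) and Klf2 (log2 difference -1.04, SE 0.17, adjusted p = 5.26e-05), all Krüppel-like factors. In the ventricle no AP-1 partner gene was higher, also at an unadjusted p under 0.05 in edgeR, and 2 were lower, Jdp2 (log2 difference -0.45, SE 0.12, adjusted p = 0.0249) and Jund (log2 difference -0.58, SE 0.19, adjusted p = 0.049). Of the other early factors 1 was higher there, Srf (log2 difference 0.49, SE 0.15, adjusted p = 0.0453), and 2 were lower, Id1 (log2 difference -0.80, SE 0.17, adjusted p = 0.00666) and Ier5 (log2 difference -0.30, SE 0.09, adjusted p = 0.0446).

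Genes listed as feedback genes, many but not all of whose products restrain the early response, were mixed in the atrium. Of 24, 6 were higher, 7 lower and 11 did not pass, shares near those of all genes tested (19.7% higher, 24.2% lower). Gadd45g, a stress sensor, rose from 28.5 ± 5.43 to 162 ± 53.4 CPM (log2 difference 2.51, SE 0.20, adjusted p = 4.08e-09), and Btg2, an antiproliferative early gene, from 48.4 ± 4.38 to 85.4 ± 7.13 CPM (log2 difference 0.82, SE 0.11, adjusted p = 5e-06). Dusp1 fell from 71.3 ± 9.15 to 28.96 ± 6.24 CPM (log2 difference -1.301, SE 0.15, adjusted p = 7.96e-07), and Sik1, a kinase that restrains CREB coactivators, from 95.7 ± 18.1 to 38.5 ± 4.82 CPM (log2 difference -1.31, SE 0.14, adjusted p = 1.34e-07). In the ventricle 1 of 24 was higher, Dusp4 (log2 difference 1.65, SE 0.39, adjusted p = 0.0131), and 2 were lower, Nfkbia (log2 difference -0.55, SE 0.10, adjusted p = 0.0036) and Sik1 (log2 difference -0.57, SE 0.14, adjusted p = 0.0131). Of 18 secreted and effector early genes tested, 7 were higher and 3 lower in the atrium, among them the cytokine gene Lif, at 1.22 ± 0.213 CPM in room air and 9.87 ± 1.85 in hyperoxia (log2 difference 3.02, SE 0.29, adjusted p = 4.25e-08), and Rgs2, an inhibitor of Gq signalling, which was lower (log2 difference -1.43, SE 0.15, adjusted p = 1.39e-07). None of these 18 was higher in the ventricle by edgeR, where 3 were at an unadjusted p under 0.05, and 1, Rhob, was lower (log2 difference -0.38, SE 0.11, adjusted p = 0.0348).

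Targets of Myc and Egr1 were read beside the factors. Of 18 MYC target genes 15 were higher in the hyperoxic atrium, 1 was lower and 2 did not pass. Their median log2 difference was 0.86, against -0.06 over all genes tested. Gnl3, which encodes nucleostemin, rose from 27.3 ± 2.33 to 93.8 ± 10.3 CPM (log2 difference 1.78, SE 0.14, adjusted p = 4.12e-09), Srm, the spermidine synthase gene, from 25.04 ± 3.09 to 64.6 ± 12.6 CPM (log2 difference 1.37, SE 0.13, adjusted p = 2.34e-08), and Nop58, a component of box C/D nucleolar particles, from 45.7 ± 2.76 to 113 ± 11.8 CPM (log2 difference 1.302, SE 0.12, adjusted p = 2.27e-08). Of 12 genes of the MYC network 2 were higher and 6 lower. The lower ones included the MAX partners that oppose MYC, Mxi1 (log2 difference -1.21, SE 0.14, adjusted p = 3.56e-07), Mxd4 (log2 difference -0.69, SE 0.11, adjusted p = 3.98e-05) and Mxd1 (log2 difference -0.76, SE 0.15, adjusted p = 0.000355). Mycl, a MYC family gene of the same list, also had a lower mean, 0.305 ± 0.0959 CPM in hyperoxia against 1.15 ± 0.106 in room air. Mlx had a higher one, 21.7 ± 1.13 against 16.2 ± 1.14 CPM. In the ventricle 3 of the 18 MYC targets were higher and 1 lower. Of 8 EGR1 target genes 4 were higher and 2 lower in the atrium. None of these 8 passed in the ventricle by edgeR, also at an unadjusted p under 0.05. Over all genes tested 10.9% passed there at an adjusted p under 0.05. Whether the levels of Myc or Egr1 acted on these targets was not tested.

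Markers of other cell types and of stress moved with oxygen, and their part in these results was not tested. Over all genes tested 19.7% were higher and 24.2% lower in the hyperoxic atrium, and 5.64% and 5.28% in the hyperoxic ventricle. In the atrium 8 of 9 endothelial markers were lower and 1 higher, their summed level running from 1258 to 1470 CPM in room air and from 920.1 to 1124 in hyperoxia. Of 7 fibroblast markers 5 were lower and 1 higher (5799 to 6269 against 3320 to 4732 CPM), and of 7 macrophage markers 5 were higher (159 to 168 against 207 to 333 CPM). In the ventricle 4 of 9 endothelial markers were lower (2101 to 2293 against 1657 to 1846 CPM). None of these markers was at 0 in any group. Fewer cells of a type and less RNA per cell cannot be told apart in whole tissue. Other marker lists moved too. In the hyperoxic atrium 3 of 4 neutrophil markers tested were higher, and of 6 ventricular cardiomyocyte markers 4 were lower and 1 higher. In the hyperoxic ventricle 2 of 6 erythroid markers were lower. Of 12 heat shock genes 9 were higher in the hyperoxic atrium and 3 in the hyperoxic ventricle. Hspa1a, the inducible HSP70 gene, stood at 2.58 ± 0.0917 CPM in room air atria, between 14.2 and 40.2 in hyperoxic atria, and at 2.21 ± 0.656 and 2.06 ± 0.455 CPM in room air and hyperoxic ventricles. Myl7 in the ventricles ran from 19.5 to 529.5 CPM in room air and from 2.66 to 127.5 in hyperoxia. Of 8 atrial cardiomyocyte markers 3 were lower and 1 higher in the hyperoxic ventricle, and 7 lower and 1 higher at an unadjusted p under 0.05 in edgeR. Their summed level there ran from 1070 to 1994 CPM in room air and from 264 to 880 in hyperoxia. The part of atrial tissue in the ventricular results was not tested.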

How the data were processed

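Left atria and left ventricles of C57BL/6J pups were sequenced as stranded polyadenylated libraries, 5 per group. Each deposited file gives the unscaled counts of 1 library by gene symbol. The submitters' processing notes name STAR 2.7.6a, fastp 0.20.1, featureCounts of Subread 2.0.1, Salmon 1.3.0 and the build GRCm38.p6. Neither the annotation release nor a strand option for counting is stated, and both are not given in the sources used here, so counts of genes that overlap on opposite strands may mix.

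The counts were filtered with filterByExpr, scaled by TMM and tested with edgeR 4.0.16 in R 4.3.3 (robust quasi-likelihood F test, 1 fit over all 20 libraries), with Benjamini-Hochberg adjustment and a threshold of 0.05. SE is the log2 difference over the square root of F, and 95% intervals use 16 degrees of freedom within groups. CPM use the scaled library sizes, log2 CPM in the spread a prior count of 2, and TPM the merged exon length in GENCODE for 53186 genes with 1 match. Library totals of 26510081 to 38244117 gave the 10 genes at least 9 counts in every library. Libraries of a group differed well beyond counting noise (chi-square over its degrees of freedom at least 13.26). Alternatives were RLE and upper-quartile scaling, other filters, DESeq2 1.42.0, limma 3.58.1 voom with quality weights, smaller sets of libraries, covariates, and a replicate block. The block used only replicate numbers found in every group compared.

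The 10 genes and the wider lists were chosen with earlier results of these data known. All 10 are named in every comparison. Of each wider list at most 4 genes are named with a test result, those with the smallest p in the comparison described. Genes most like the 10 are the 6 with the highest r.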

Additional observations from a re-analysis of the deposited data

Results flagged for a closer look

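Some values of single libraries stood apart from the other 4 of their group by Dixon's test at 95%, which chance gives in about 1 of 20 groups, and 40 combinations of gene and group were examined. Egr2 in hyperoxic ventricle 4 stood high, at 4.27 CPM. Egr3 in hyperoxic atrium 2 stood low, at 5.47 CPM. Junb was low in room air atrium 4, at 12.7 CPM, and in hyperoxic atrium 1, at 24.7 CPM. Myc was low in room air ventricle 4, at 8.79 CPM. These are 5 of the 40 combinations.

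For 6 genes the log2 response to hyperoxia differed between the chambers in edgeR's test of the difference, atrium minus ventricle. It was -2.19 for Fosb, -1.27 for Jun, -0.80 for Nr4a1, 0.53 for Junb, 0.72 for Ier2 and 0.96 for Myc. For Jun the 5 hyperoxic atria lay below all room air atria, while the ventricular groups overlapped.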

How the results depend on the processing

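The count of genes passing in the atrium was 7, and 5 to 8 in 33 alternative fits. In room air chambers it was 8 (7 to 8 in 34 fits) and in hyperoxic chambers 7 (5 to 8 in 34 fits). These counts stayed within 1.5 times the reported ones. The 6 genes whose responses differed became 2 with the length slope as a covariate and 3 with both the length slope and Y-linked reads, and ranged from 5 to 7 when each library was left out in turn. The 5 genes passing in the ventricle became 3 with no filter on low counts, 3 with voom quality weights, 3 with the length slope, 1 with Y-linked reads, 2 where Y-linked reads outnumber Xist, 1 with both covariates and 0 with the Myl7 covariate, and ranged from 2 to 6 when each library was left out. With no filter more genes enter the adjustment. For the others the cause was not tested. The length slope separated the oxygen groups in the ventricles, so losses with it cannot be told apart from a loss of the oxygen difference. Ier2 in the atrium changed sign, to -0.079, with both covariates.

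Same-numbered libraries of the groups did not deviate together throughout. Between atrium and ventricle r was 0.03, 0.09, 0.32, 0.28 and 0.1 in room air, where libraries 3, 4 and 5 matched their own number best, and 0.02, 0.06, 0.04 and 0.16 in hyperoxia, where 1 of 4 did. The numbers were not used as pairs in the main fit, though such r cannot show whether an atrium and a ventricle came from the same pup. Hyperoxic libraries 1, 4 and 5 held more Xist than Y-linked reads in both chambers, and library 2 the reverse. The replicate block over all groups kept only libraries 1, 2, 4 and 5, the numbers found in every group. Room air and hyperoxic pups of the same number were different animals. With that block 5 genes passed in the atrium (Egr1 and Ier2 lost), 3 in the ventricle and 6 for the difference. Between room air chambers 8 passed and between hyperoxic chambers 5. Fewer libraries and the block cannot be told apart in these counts. With a replicate block within each oxygen level, without hyperoxic atrium 3 and hyperoxic ventricle 6, 8 and 7 passed between the chambers. The depth limits Fosb most, with 9 counts in its lowest library.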

Other observations

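Wider lists also differed between the chambers. In room air 12 of 24 feedback genes were higher in the atrium and 4 lower, 7 of 12 AP-1 partner genes were higher and none lower, and 7 of 18 MYC target genes were lower and 1 higher, where 28.7% of all genes tested were higher and 26.3% lower. In hyperoxia 14 of 18 MYC target genes were higher in the atrium and 2 lower, and 6 of 8 EGR1 target genes were higher and 2 lower, where 25.2% and 23.6% of all genes tested were. Icam1, an adhesion molecule of leukocyte entry, stood at 35.02 ± 5.07 CPM in hyperoxic atria and 11.4 ± 1.53 in hyperoxic ventricles (log2 difference 1.61, SE 0.11, adjusted p = 2.87e-11, edgeR).

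Of 14 glucocorticoid and clock response genes 6 were higher and 5 lower in the hyperoxic atrium, where 19.7% and 24.2% of all genes tested were. In the hyperoxic ventricle 1 was higher and 1 lower, near the 5.64% and 5.28% of all genes. Per1, a clock gene that glucocorticoids and CREB also induce, fell in both, from 108 ± 37.1 to 20.6 ± 6.57 CPM in the atrium (log2 difference -2.39, SE 0.27, adjusted p = 4.27e-07, edgeR) and from 72.1 ± 24.7 to 28.1 ± 4.13 CPM in the ventricle (log2 difference -1.36, SE 0.26, adjusted p = 0.0036, edgeR). Zbtb16, a glucocorticoid-induced factor, rose from 0.606 ± 0.186 to 2.22 ± 0.992 CPM in the ventricle (log2 difference 1.86, SE 0.35, adjusted p = 0.00317, edgeR). The hour of tissue collection is not given in the sources used here, and its part was not tested.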
